A study of Mus musculus with 6 samples.

Results

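The genes that carry glutamate and GABA across membranes were examined in dentate gyrus (DG) granule cell layer of adult mice 4 weeks after loss of the transcription factor Bcl11b/Ctip2. Members were 8 transporter genes given by name, *Slc17a6*, *Slc17a7*, *Slc17a8*, *Slc32a1*, *Slc6a11*, *Slc1a1*, *Slc1a2* and *Slc1a3*, of 19938 genes tested. Each was matched by its symbol in the platform annotation and had 1 probe set, so no choice between probe sets was needed. The study compared 3 Bcl11b mutant with 3 Bcl11b control samples on 1 Affymetrix whole-transcript array each. Mutants carried *Bcl11b* flox/flox alleles, tetO-Cre and *CaMKIIα*-tTA, a tet-off system in which the forebrain promoter of *CaMKIIα* switches on Cre once doxycycline is absent. What genotype the controls of this line had is not stated in the labels or the methods. Both groups received doxycycline in the drinking water from embryogenesis until 2 months of age, after which it was withdrawn. The granule cell layer was then cut from cresyl violet-stained cryosections by laser capture, so that the samples hold a tissue layer and not sorted cells, and since the *CaMKIIα* promoter is active in excitatory forebrain neurons, glia and interneurons in the layer are not the cells it is known to target. No source used here says that each array holds 1 animal. A p-value here therefore sets a difference between groups against the scatter of these samples, which may be technical.

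Glutamate released by neurons is packed into synaptic vesicles by the vesicular transporters of the SLC17 family, and GABA by that of the SLC32 family. After release, plasma membrane carriers of the SLC1 family remove glutamate and those of the SLC6 family remove GABA, and in the hippocampus much of this clearance is done by astrocytes. Granule cells are glutamatergic, and their mossy fiber terminals in CA3 were stained in the study for Vglut1, the product of *Slc17a7*.

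The labels were checked on the targeted gene first. *Bcl11b* had log2 levels of 9.03, 8.68 and 8.82 in mutant arrays, against 10.56, 10.40 and 10.30 in control arrays, with no overlap. Mutant minus control, this was -1.58 on the log2 scale (SE 0.099, adjusted p = 2.56e-05 by limma). Next, 8 markers of granule cells were examined. By limma 5 were lower and 2 higher in mutants, against 5.93% lower and 9.23% higher over all genes tested. Among them were *Stxbp6* with a log2 change of -0.69, *Tdo2* with 1.13, *Trpc6* with -1.64 and *Calb1* with -0.97. The 1 that did not pass was *Prox1*, the defining transcription factor. It had 11.65, 11.59 and 11.57 in mutants and 11.81, 11.70 and 11.45 in controls, with overlapping groups. Among the lower was *Dsp* (log2 change -0.81), which the paper names as a direct target of Bcl11b/Ctip2, so the list is not independent of the mutation.

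The promoters of the transporters are shown first, because the study names TGGGC as a putative Bcl11b/Ctip2 site. The 250 bases before each RefSeq transcription start (GRCm38.p6) were searched on both strands for these letters. All 8 genes had an entry, with 10 start sites in all, and 8 of the 10 windows held a match. Over all 32851 windows of the same length the share was 50.7%. Shown are the 2 members that passed the test, *Slc6a11* and *Slc1a2*, and *Slc17a7*, whose protein the study stained. Sequences run 5′ to 3′ on the strand of the gene, and capitals mark TGGGC.
Slc6a11 (chr6:114130991-114131240, plus strand): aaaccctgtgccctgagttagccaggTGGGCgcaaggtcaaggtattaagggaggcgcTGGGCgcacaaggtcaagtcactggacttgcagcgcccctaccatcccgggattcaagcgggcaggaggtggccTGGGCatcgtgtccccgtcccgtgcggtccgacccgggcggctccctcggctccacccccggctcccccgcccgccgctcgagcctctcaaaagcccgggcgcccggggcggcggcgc
Slc1a2 (chr2:102706188-102706437, plus strand): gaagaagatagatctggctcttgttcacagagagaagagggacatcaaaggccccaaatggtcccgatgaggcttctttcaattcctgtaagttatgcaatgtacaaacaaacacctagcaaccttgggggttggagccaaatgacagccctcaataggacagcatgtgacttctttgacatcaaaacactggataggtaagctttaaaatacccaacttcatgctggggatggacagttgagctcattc
Slc17a7 (chr7:45163671-45163920, plus strand): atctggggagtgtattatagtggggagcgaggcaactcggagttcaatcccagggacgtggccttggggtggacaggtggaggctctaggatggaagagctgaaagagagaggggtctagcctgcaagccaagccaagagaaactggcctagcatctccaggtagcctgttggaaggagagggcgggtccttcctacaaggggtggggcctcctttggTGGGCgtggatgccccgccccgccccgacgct
The window of *Slc6a11* held 3 matches, at positions -224, -192 and -118 before the start, and 5.68% of all windows held 3 or more. That of *Slc1a2* held none and that of *Slc17a7* 1, at -32. A match here is a description of the letters and was not set against any binding data. GC content was 71.2% for *Slc6a11*, 44.8% for *Slc1a2* and 61.2% for *Slc17a7*.

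Transcripts of *Slc6a11* and *Slc1a2* were higher in mutant granule cell layer, and the other 6 members did not pass the test. The differences were small, with *Slc6a11* at 1.26 and *Slc1a2* at 1.25 times the control level. Of 19938 genes, 15.2% passed the same test, 9.23% as higher and 5.93% as lower in mutants, so 2 of 8 members higher and 0 lower stands beside a background of that size. The same shares stand beside the counts of every other gene list here. The count of 0 lower members comes from limma, where 1 member, *Slc17a6*, was lower at an unadjusted p under 0.05. The median log2 change over the 8 members was 0.050, against -0.0027 over all genes tested. Groups did not overlap for 4 of 8 members, against 31.6% of all genes tested. With 3 arrays in each group, the smallest two-sided p of an exact permutation test is 0.1, and it was reached by *Slc6a11*, *Slc1a2*, *Slc1a3* and *Slc17a6*.

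**Figure D1:**
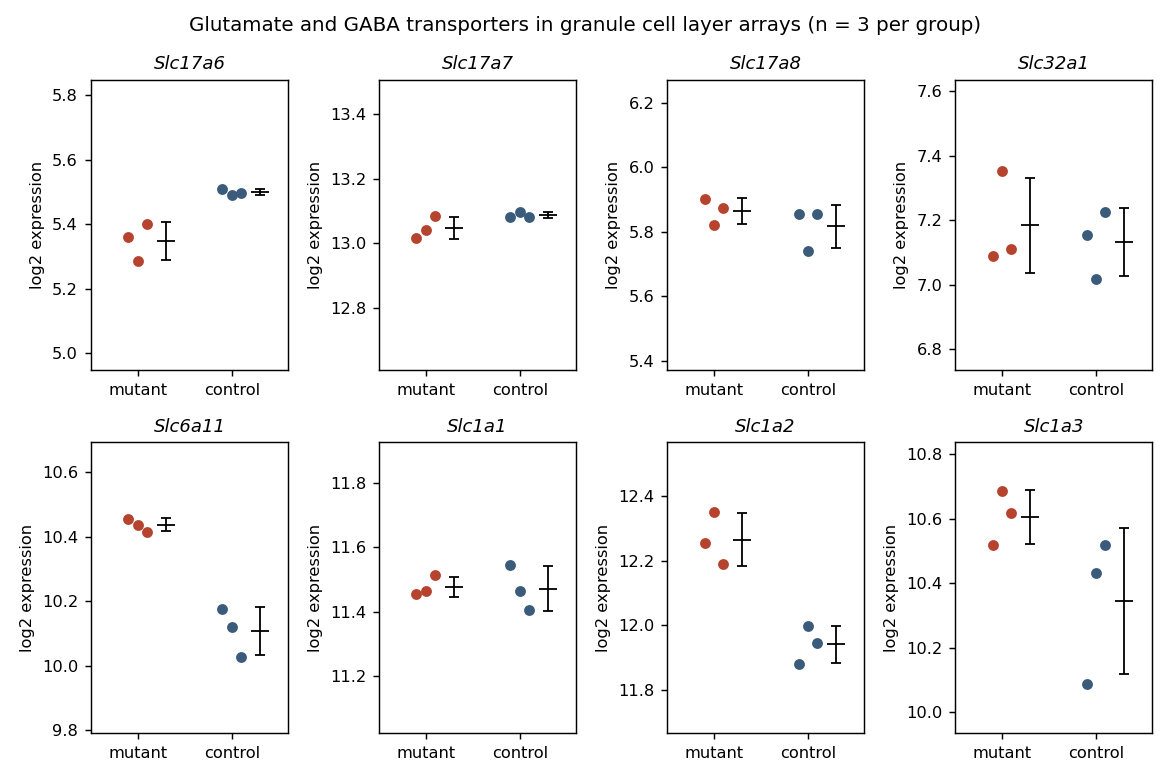
Log2 expression of each of the 8 transporters on the vertical axis, with mutant arrays on the left and control arrays on the right of each panel. Each point is an array, lines mark means with their SD (n = 3 each), and every panel spans the same range of 0.9 log2 units. *Slc6a11* and *Slc1a2* show mutants well above controls, whereas *Slc17a7* and *Slc1a1* show overlapping groups.

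*Slc17a7* encodes Vglut1, the vesicular glutamate transporter used by granule cells. Its log2 level was 13.02, 13.04 and 13.08 in mutant arrays, against 13.08, 13.10 and 13.08 in control arrays. The groups overlapped, and mutants 1 and 2 lay below all controls. The log2 change was -0.040 (SE 0.050; limma, adjusted p = 0.688), with a 95% interval of -0.15 to 0.074. This p does not show that the levels were alike, and the value moved with the scaling, to -0.088 with arrays centred on their medians, -0.18 with arrays scaled to an equal mean of astrocyte markers (chosen after seeing the data) and 0.0074 with renewed quantile normalization.

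*Slc17a6*, which encodes the vesicular transporter Vglut2, had 5.36, 5.29 and 5.40 in mutants and 5.51, 5.49 and 5.50 in controls. All mutant arrays were below all control arrays, by a log2 change of -0.15 (adjusted p = 0.101 from limma), which did not pass the test. The third vesicular glutamate transporter gene, *Slc17a8* (Vglut3), had 5.90, 5.82 and 5.87 in mutants and 5.85, 5.74 and 5.85 in controls, and the groups overlapped. Its log2 change was 0.049 (adjusted p = 0.659 from limma). Both genes lay under the array medians, which were 6.29 to 6.36, and no measure of detection was used here, so that neither was shown to be above background. With arrays centred on their medians, *Slc17a6* passed (log2 change -0.20, adjusted p = 0.0369 from limma).

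*Slc32a1* encodes the vesicular transporter that loads GABA and glycine and is known as a marker of inhibitory terminals. Its log2 level was 7.09, 7.35 and 7.11 in mutant arrays and 7.15, 7.02 and 7.23 in control arrays. Mutant 2 was the highest and control 2 the lowest array, whereas mutants 1 and 3 lay below controls 1 and 3, so that the groups overlapped. The log2 change was 0.051, with a 95% interval of -0.14 to 0.25 (adjusted p = 0.777 from limma). Its sign turned when mutant 2 or control 2 was left out, with log2 changes of -0.034 and -0.0068. Of 16 markers of inhibitory neurons, 1 was higher and 3 were lower in mutants, with a median change of -0.0025. These were *Cck* with a log2 change of 1.56, *Npy* with -0.58, *Lamp5* with -0.30 and *Gad1* with -0.27. Whether these transcripts came from inhibitory neurons alone was not tested. *Npy* and *Lamp5* missed the threshold without mutant 1, and over the fits without 1 array their log2 changes were -0.72 to -0.48 and -0.34 to -0.25. The summed linear signal of the 16 markers was 10190 to 11490 in mutants and 7801 to 9585 in controls, and their mean log2 level was 8.11 to 8.23 in mutants and 8.01 to 8.27 in controls. *Cck* carried the higher sum in mutants: without it, a sum taken after seeing the data, the other 15 markers had 5610 to 6020 in mutants and 5920 to 6980 in controls, with overlapping groups. The part of these cells in the level of *Slc32a1* was not tested.

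*Slc6a11* encodes the plasma membrane GABA transporter GAT3, known mainly from astrocytes. Its log2 level was 10.46, 10.44 and 10.42 in mutants, against 10.18, 10.12 and 10.03 in controls. Every mutant array lay above every control array, and the mutants lay closer together than the controls, with an SD of 0.020 in mutants and 0.075 in controls (n = 3 each). The log2 change was 0.33 (SE 0.057; limma, adjusted p = 0.00516), with a 95% interval of 0.20 to 0.46. It passed the test without any single array, with log2 changes of 0.29 to 0.36.

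*Slc1a2* encodes GLT1 (EAAT2), the main glutamate carrier of astrocytes, which is also known from some axon terminals. Its log2 level was 12.254, 12.352 and 12.188 in mutants, against 11.880, 11.996 and 11.944 in controls. All mutants were above all controls, and the gap between the groups was wider than the range of either group. The log2 change was 0.32 (SE 0.062; limma, adjusted p = 0.00845), with a 95% interval of 0.18 to 0.47. It was 0.28 to 0.36 without any single array, each past the threshold. With the methods' t-test after Benjamini-Hochberg adjustment the adjusted p was 0.0659 for *Slc1a2* and 0.0422 for *Slc6a11*.

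*Slc1a3* encodes GLAST (EAAT1), the other astrocyte glutamate carrier, which is also a marker of the radial glia-like stem cells of the DG. Its log2 level was 10.52, 10.68 and 10.62 in mutants, against 10.09, 10.43 and 10.52 in controls. Control 1 was the lowest array, and the controls spread over an SD of 0.23, against 0.084 in mutants. Mutant 1 and control 3 differed by 0.00023, so that the groups were parted by almost nothing. The log2 change of 0.26 did not pass the test (SE 0.11; limma, adjusted p = 0.150). Without control 1 it was 0.13 (adjusted p = 0.211 from limma).

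*Slc1a1* encodes EAAC1 (EAAT3), the glutamate carrier of neurons, which also takes up cysteine. It had 11.46, 11.46 and 11.51 in mutants and 11.54, 11.46 and 11.40 in controls. The mutants lay inside the range of the controls. The log2 change was 0.0065 (adjusted p = 0.966 by limma, SE 0.057), with a 95% interval of -0.12 to 0.14, and its sign turned without mutant 3 (-0.011), without control 3 (-0.027) and with arrays centred on their medians (-0.042).

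**Figure D2:**
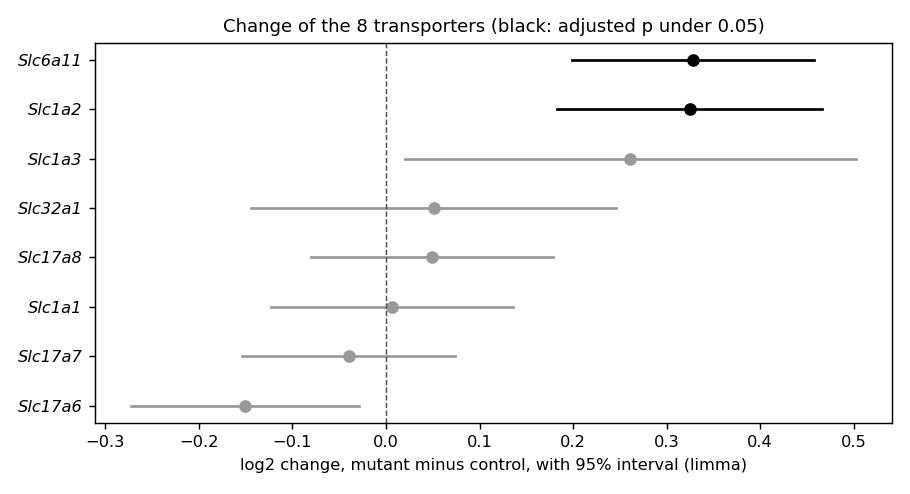
Log2 change of each of the 8 transporters, mutant minus control, on the horizontal axis, with its 95% interval from limma (n = 3 per group). Black marks adjusted p under 0.05, which *Slc6a11* (0.33) and *Slc1a2* (0.32) passed. The intervals of *Slc17a7*, *Slc17a8*, *Slc32a1* and *Slc1a1* hold 0, and those of *Slc17a6* and *Slc1a3* leave it out only before adjustment over all genes.

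Since *Slc6a11*, *Slc1a2* and *Slc1a3* are known from astrocytes, 14 other astrocyte markers were set beside them. Of these 3 were higher and 0 lower in mutants, with a median log2 change of 0.083 and 3 at an unadjusted p under 0.05. They were *Gfap*, the intermediate filament of astrocytes, with a log2 change of 0.54 (adjusted p = 0.0130 from limma), *Atp1b2*, a sodium pump subunit, with 0.60, and the receptor *Ntsr2* with 0.34. *Gfap* missed the threshold without control 2 and *Ntsr2* without any single array other than mutant 1, with log2 changes of 0.44 to 0.66 and 0.24 to 0.41 over these fits. The water channel *Aqp4* (log2 change 0.025), the enzyme *Aldh1l1* (0.051) and the connexin *Gja1* (0.10) did not pass. *Atp1b2* is not restricted to astrocytes. The mean log2 level of the 14 markers was 8.90, 9.10 and 8.94 in mutants and 8.72, 8.84 and 8.97 in controls, so the groups overlapped. Their summed linear signal was 12630 to 13690 in mutants and 11070 to 12050 in controls. Without *Atp1b2*, also chosen after seeing the data, the other 13 had 9160 to 10100 in mutants and 8670 to 9830 in controls, and the groups overlapped. Array by array, control 1 was the lowest for *Slc1a2*, for *Slc1a3* and for the marker mean, and mutant 2 the highest, whereas for *Slc6a11* the lowest array was control 3 and the highest was mutant 1. With all arrays shifted to an equal mean of these markers, a scaling chosen after seeing the data, the log2 changes were 0.19 for *Slc6a11* (adjusted p = 0.377 from limma) and 0.19 for *Slc1a2* (adjusted p = 0.383). Under this scaling 0 of 8 members passed limma's test, with 1 at an unadjusted p under 0.05. Over all genes 1995 of 19938 passed, against 3023 in the main fit. The scaling also brings the scatter of the marker mean into every gene. The lost calls therefore cannot tell what share astrocytes had in the changes, which was not tested. In tissue of this kind, more cells of a type and more RNA per cell cannot be told apart.

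**Figure D3:**
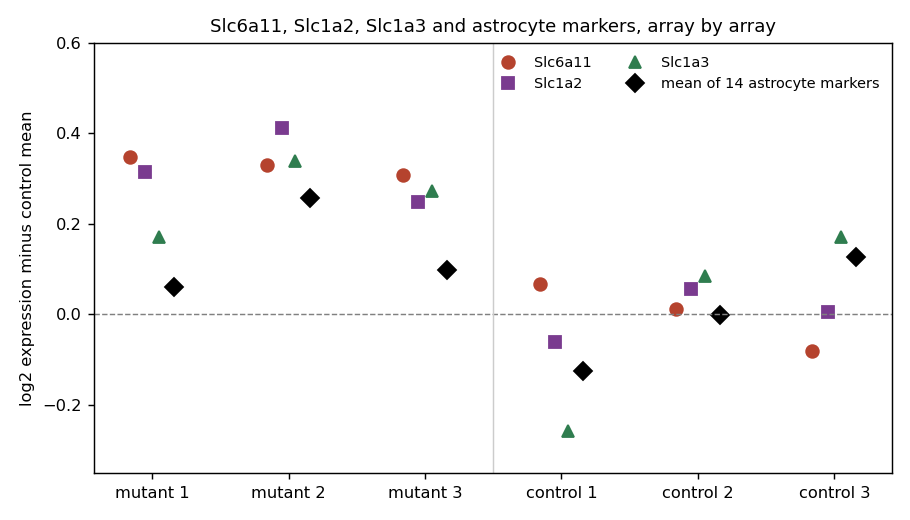
Log2 expression of *Slc6a11*, *Slc1a2*, *Slc1a3* and the mean of 14 astrocyte markers in each array, relative to the control mean (vertical axis), with mutants on the left. The marker mean lies at 0.061 to 0.26 in mutants and at -0.13 to 0.13 in controls, while all mutant values of *Slc6a11* (0.31 to 0.35) and *Slc1a2* (0.25 to 0.41) lie above the controls.

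Genes listed as markers of other cells differed in both directions. Over all genes tested, 9.23% were higher and 5.93% lower in mutants. Of 9 microglia markers, 1 passed as lower (*Tmem119*, log2 change -0.32), and their median change was -0.26. All 9 had a negative change, with 3 at an unadjusted p under 0.05 by limma. Of 11 oligodendrocyte markers, 1 was lower (*Ermn*, -1.71), with a median of -0.12, and of 8 endothelial markers 1 was higher (*Flt1*, 0.44), with a median of 0.14. *Flt1* missed the threshold without mutant 2, mutant 3 or control 3 (log2 changes of 0.33 to 0.54 over the fits without 1 array). Of 8 markers of mossy and CA3 pyramidal cells, 4 were higher and 1 was lower. The higher ones were *Bok* with 1.90, *Plagl1* with 0.71, *Glp1r* with 1.13 and *Grik4* with 0.58. *Glp1r* had 5.87, 6.15 and 5.98 in controls, under the array medians, so the size of its rise is not exact. The lower one was *Iyd* with -0.40 (adjusted p = 0.0174 from limma), at levels under the array medians. It passed in 2 of the 6 fits without 1 array. The mossy cell markers *Calb2* (-0.33) and *Drd2* (0.038) did not pass. In control arrays of the layer *Grik4* had 9.76, 9.62 and 9.50. Whether these transcripts came from mossy or CA3 cells or from granule cells was not tested.

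The genes whose 6 array values were most like those of the changed members were named as a description. For *Slc6a11* these were *Apba2*, an adaptor protein of the synapse, *Tmem178b* and the adenylyl cyclase *Adcy5*, with Pearson correlations of 0.999, 0.999 and 0.998 over 6 arrays. In all, 788 genes had a correlation over 0.95 with *Slc6a11*. For *Slc1a2* they were the receptor *Glp1r*, *Tyrp1* and the kinase *Camk1*, with 0.997, 0.996 and 0.995, and 209 genes had a correlation over 0.95. Any gene with a clear difference between the groups correlates with members that also differ between them.

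Beside the transporters themselves, 45 of 50 other genes of the glutamate and GABA cycle were measured. Mutants had higher levels of 10 and lower levels of 3, while 32 missed the threshold, and the median log2 change was 0.023. Over all genes tested, 9.23% were higher and 5.93% lower, and the counts of each list below stand beside these shares. The 3 lower genes of 45 are near that background. With the astrocyte scaling named above, 4 of the 45 genes passed, beside 1995 of all 19938 genes tested. Of these 4, 3 (*Gad1*, *Glud1* and *Slc38a5*) were among the 13 of the main fit. Among the 11 genes listed as other transporters of glutamate and GABA, 3 were higher and 0 lower by limma, with 4 at an unadjusted p under 0.05 in either direction. The list also takes in *Slc1a4*, 1 of these 3, which is described below as a carrier of other amino acids. The mitochondrial glutamate carrier *Slc25a22* had 10.16, 10.25 and 10.14 in mutants, against 9.88, 9.77 and 9.58 in controls, a log2 change of 0.44 (adjusted p = 0.00654 from limma). *Slc1a4*, a carrier of alanine, serine and cysteine in the same family as the glutamate carriers, had 8.98, 8.91 and 8.85 in mutants, against 8.59, 8.60 and 8.49 in controls, a log2 change of 0.35 (adjusted p = 0.00474 from limma). In both genes all mutants lay above all controls. *Slc1a6*, the glutamate carrier of Purkinje cells, had a log2 change of 0.26 (adjusted p = 0.0493 from limma), at levels of 6.19 to 6.43 in mutants and 6.01 to 6.15 in controls that were near or under the array medians, and of the 6 fits without 1 array it passed only in that without mutant 2 (range of log2 changes 0.22 to 0.34).

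Glutamine, the precursor that astrocytes hand back to neurons, is moved by carriers of the SLC38 family. Of 11 glutamine and alanine transporters, 3 were higher and 1 was lower. The largest difference was that of *Slc38a5*, a glutamine carrier of system N. It had 6.04, 6.09 and 6.06 in mutants, against 8.12, 7.33 and 7.20 in controls, a log2 change of -1.48 (adjusted p = 0.00144 by limma, SE 0.20). The mutant arrays lay close together and under the array medians, so the size of this fall is not exact, and control 1 stood above the other controls. *Slc38a1*, a glutamine carrier known from neurons, had 10.73, 10.79 and 10.70 in mutants, against 10.51, 10.23 and 10.17 in controls, a log2 change of 0.44 (adjusted p = 0.00978 from limma). *Slc7a5* and *Slc3a2*, which encode the light and the heavy chain of one amino acid exchanger, had log2 changes of 0.24 each. Of the 6 fits without 1 array, *Slc7a5* passed only without control 1 (range 0.19 to 0.28), and *Slc3a2* without mutant 2 or control 1 (0.19 to 0.28), whereas *Slc38a5* and *Slc38a1* passed in all 6.

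Of 15 genes of glutamate synthesis and breakdown, 2 were higher and 1 was lower. *Glud1*, the glutamate dehydrogenase, had 10.29, 10.15 and 10.19 in mutants, against 10.53, 10.64 and 10.53 in controls, a log2 change of -0.36 (adjusted p = 0.00474 from limma), and passed in all 6 fits without 1 array. The branched-chain aminotransferases *Bcat1* and *Bcat2*, the cytosolic and the mitochondrial enzyme, had log2 changes of 0.27 each. *Bcat1* passed only without control 1 (range 0.23 to 0.33) and *Bcat2* missed the threshold without any one of the mutants (0.22 to 0.30). *Glul*, the glutamine synthetase of astrocytes, had 11.07, 11.56 and 11.21 in mutants and 10.86, 11.07 and 11.34 in controls, with overlapping groups and a log2 change of 0.19 (adjusted p = 0.459 from limma).

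Of 8 genes of GABA synthesis and breakdown, 2 were higher and 1 was lower. *Abat*, the transaminase that degrades GABA, had 10.76, 10.66 and 10.59 in mutants, against 10.12, 10.34 and 10.32 in controls, a log2 change of 0.41 (adjusted p = 0.00751 from limma). *Gad1*, which makes GABA from glutamate, had 10.99, 11.03 and 10.95 in mutants, against 11.31, 11.15 and 11.32 in controls, a log2 change of -0.27 (adjusted p = 0.0192 from limma). Its relative *Gad2* had 9.08, 8.92 and 8.87 in mutants and 9.06, 8.52 and 9.11 in controls, and its groups overlapped. *Aldh9a1*, an enzyme of the route from putrescine to GABA, had a log2 change of 0.21. *Abat* passed in all 6 fits without 1 array. *Gad1* missed the threshold without mutant 1, mutant 3 or control 3 (range -0.33 to -0.24), and *Aldh9a1* passed only without control 2 (0.18 to 0.25).

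**Figure D4:**
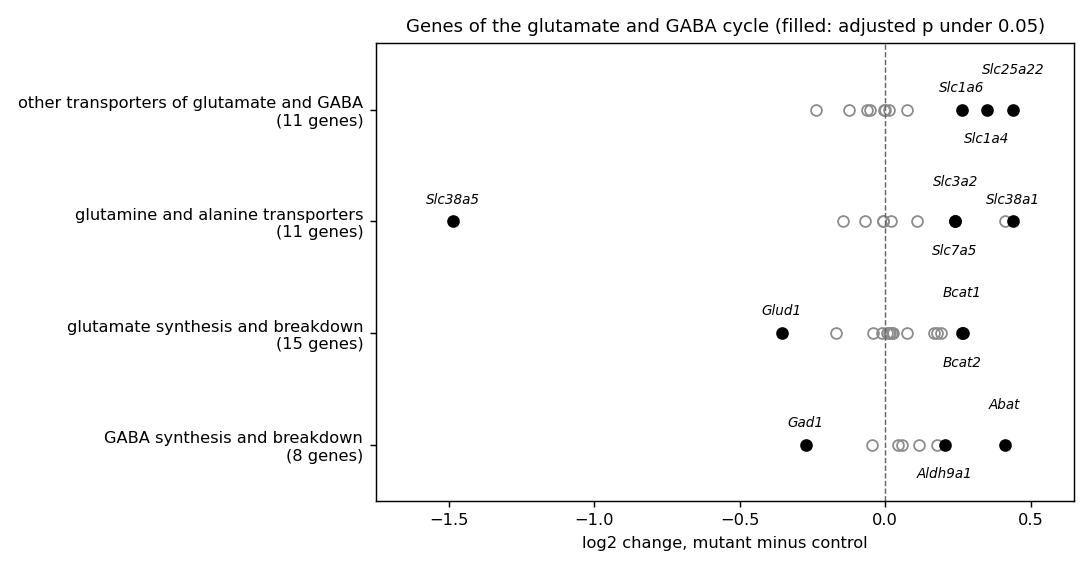
Log2 change, mutant minus control, of the measured genes of 4 lists of the glutamate and GABA cycle. Each circle is 1 gene, filled and named where adjusted p was under 0.05 by limma (10 higher and 3 lower of 45). *Slc38a5*, at -1.48, lies apart from the others, which range from -0.36 to 0.44.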

How the data were processed

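Log2 expression was analysed in 3 mutant and 3 control arrays of DG granule cell layer. The deposited values are log2 values, which the authors obtained by RMA using Affymetrix Expression Console (background correction, quantile normalization, 1 value per probe set), as the submitters' processing notes name it; versions, settings and the annotation's build are not stated there. A change common to all genes is thereby removed. Of 35556 probe sets, 21789 had 1 gene, 1621 several and 12146 were not listed. The probe set with the highest mean represented each of 19938 genes, with no filter on level. All 8 members matched RefSeq by Entrez number. Promoter sequences are from RefSeq (GRCm38.p6).

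Mutant minus control was fitted with limma 3.58.1 in R 4.3.3 (lmFit, eBayes, no covariates), Benjamini-Hochberg adjusted over all genes at 0.05, and checked on simulated data. Intervals of 95% are limma's. The paper names BRB-ArrayTools and, in general, an unpaired two-tailed t-test. Members, gene lists and alternatives were chosen with earlier results of these data known. Named were all members, changed genes of each pathway list, up to 4 genes of smallest p per marker list, and the 3 genes most correlated with each changed member. *Prox1*, *Aqp4*, *Aldh1l1*, *Gja1*, *Calb2*, *Drd2*, *Iyd*, *Glul* and *Gad2* were named outside this rule, after their values were seen. Precision is limited by having 3 arrays a group.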

Additional observations from a re-analysis of the deposited data

How the results depend on the processing

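The directions of *Slc6a11*, *Slc1a2*, *Slc1a3* and *Slc17a6* were kept under every alternative run, with log2 changes of 0.19 to 0.36, 0.19 to 0.36, 0.12 to 0.35 and -0.29 to -0.12. Of 8 members 2 passed without any single array, 2 with array weights, 1 with the methods' t-test after adjustment, 3 with arrays centred on their medians, and 0 with arrays scaled to the astrocyte markers, where 1 was at an unadjusted p under 0.05. Signs turned for *Slc17a7* with renewed quantile normalization (0.0074), for *Slc17a8*, *Slc32a1* and *Slc1a1* with the astrocyte scaling (-0.090, -0.088 and -0.13), for *Slc32a1* without mutant 2 and control 2 (-0.034 and -0.0068), and for *Slc1a1* centred (-0.042), without mutant 3 (-0.011) and without control 3 (-0.027). Without 1 array *Slc32a1* ranged over -0.034 to 0.098 and *Slc1a1* over -0.027 to 0.043. None of these passed. Over all genes, 3023 changed, against 1141 with the t-test, 5527 with array weights, 1995 with the astrocyte scaling and 1886 to 4487 without 1 array. Of the cycle genes 13 changed, against 3 with the t-test and 6 to 12 without 1 array (6 without mutant 1, 6 without mutant 3 and 7 without control 3). Of the 3 with the t-test, 2 were among the 13, *Glud1* and *Slc1a4*. By that test *Slc38a5*, *Slc25a22*, *Abat* and *Slc38a1* missed the threshold, with adjusted p of 0.0762, 0.0906, 0.0919 and 0.115. Causes were not tested. Without 1 array fewer samples entered. With the replicate number as a replicate block, 2 members, 11 cycle genes and 3176 genes passed. *Slc1a3* then had an adjusted p of 0.0517 from limma, against 0.150 in the main fit. Same-numbered arrays had deviations that correlated by 0.16, -0.033 and 0.12, and 4 of 6 correlated best with their own number. These values do not settle whether the arrays were paired. No source says what the number marks, and for that reason the main fit assumed no pairing. *Slc17a6* and *Slc17a8* lay under the level of 7.06 of the filter on dim genes and had no value there. The number of arrays and levels near background limit small changes.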

Other observations

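Some relatives of the transporters also differed. The counts stand beside shares of 9.23% higher and 5.93% lower over all genes tested. Of 18 other SLC6 carriers, 2 were higher and 0 lower in mutants by limma, with 4 at an unadjusted p under 0.05. *Slc6a7*, the proline transporter of excitatory terminals, had log2 levels of 8.15, 7.71 and 8.04 in mutants, against 7.09, 6.91 and 7.10 in controls, with no overlap. It was 0.93 higher in mutants on the log2 scale (SE 0.11, adjusted p = 7.21e-04 by limma). *Slc6a3*, the dopamine transporter, had 7.13, 7.22 and 7.08 in mutants, against 6.80, 6.59 and 6.89 in controls, a log2 change of 0.38 (adjusted p = 0.0154 from limma), which missed the threshold without mutant 1 or mutant 2 (range without 1 array 0.29 to 0.45).

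Of 11 other vesicular carriers and vesicle proteins, 1 was higher and 2 were lower. *Slc30a3*, which encodes the vesicular zinc carrier ZnT3 of mossy fiber terminals, had 11.67, 11.67 and 11.73 in mutants, against 11.49, 11.44 and 11.42 in controls, a log2 change of 0.24 (adjusted p = 0.0154 from limma), which missed the threshold without mutant 3 or control 2 (range 0.22 to 0.26). *Slc17a5*, the lysosomal sialic acid carrier and a relative of the vesicular glutamate transporters, had 10.39, 10.39 and 10.34 in mutants, against 10.67, 10.67 and 10.64 in controls, a log2 change of -0.29 (adjusted p = 0.00538 from limma). The vesicle protein gene *Sv2c* had a log2 change of -1.51. Of 8 proteins that bind or drive the transporters, 2 were higher, the endophilin *Sh3gl1* with 0.25 and *Atp1b2* with 0.60, and 0 lower by limma, with 4 at an unadjusted p under 0.05 in either direction. Of the fits without 1 array, *Sh3gl1* passed only in those without mutant 2 or control 1 (range 0.22 to 0.29).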
